A study of Mus musculus with 12 samples.

Results

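The genes described here are 33 genes of myelin and of mature oligodendrocytes, the cells that wrap axons of the central nervous system in myelin. They were taken by symbol from the deposited table of read counts, which holds 25238 genes, and all 33 were found in it. The study asked how a peptide that enters cells and is directed at PTPσ, called intracellular sigma peptide (ISP), acts on repair after stroke, and it profiled punches of peri-infarct cortex by RNA-seq. PTPσ is a receptor for chondroitin sulfate proteoglycans. In the methods, stroke was made in young adult male mice by transient occlusion of the left middle cerebral artery (MCAo), and treatment began 1 day later and went on daily until the brain was taken at day 14. The 4 Veh mice received vehicle, 5% DMSO in saline (libraries 2, 6, 8 and 10), and the 4 ISP mice received ISP at 1 μg/g/day (libraries 12, 14, 16 and 18). The 4 libraries labelled control (19, 21, 36 and 38) carry no surgery, treatment or day of their own: the treatment text is the same for every library, naming MCAo followed by vehicle or ISP, and it mentions no sham or untreated mice. The methods give wild-type C57BL/6J or a Nestin-creER line with the Ai9 reporter for the surgery, without saying which was sequenced, and the results text speaks of a scrambled peptide where the methods and labels give vehicle. The word control is therefore only a label here.

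Myelin is a stack of oligodendrocyte membrane, compacted by basic proteins on its inner faces, rich in galactolipids and cholesterol, and held to the axon by adhesion proteins. Oligodendrocytes arise from precursors that are spread through the whole brain, and SOX10, the OLIG factors and MYRF switch on the myelin genes as these cells mature. White matter and the deep layers of cortex hold far more myelin than the upper layers, and oligodendrocytes are among the cells that ischemia can kill. The 33 genes were grouped by what their products do: 12 proteins of the sheath and its junctions, 7 enzymes of lipids and metabolites, 6 transcription factors, 5 secreted, stress or transport proteins, and 3 proteins of signalling and the cytoskeleton. A punch holds many cell types. More or fewer oligodendrocytes and more or less of an RNA in each oligodendrocyte therefore cannot be told apart in these data.

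Total counts were 21322702 to 29845629 in control, 17442711 to 24706638 in Veh and 19325979 to 28685864 in ISP. The genes that mark excitatory neurons of the cortex were high in every library, their 10 members summing to between 7799 and 11348 CPM (counts scaled to a common library size with TMM factors), so the markers of the labelled tissue were present. In 2 of the 12 libraries, genes of the choroid plexus and of the ependyma stood apart: Ttr, the transthyretin made by the choroid plexus, had 38337 counts in Veh 6 and 30986 in ISP 18, and at most 18 counts in any other library. All 6 genes of that list summed to 1656 CPM in Veh 6 and 1153 CPM in ISP 18, against 4.21 to 11.2 CPM in the other 10 libraries, and 2 of the 6 were at 0 in every control library. ISP 18 and Veh 6 are also the libraries that led the myelin genes in their groups, so results are given with and without them. What part the place of the punch has in any value below was not tested.

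With ISP set against Veh, every one of the 33 genes had a positive log2 fold change, from 0.25 for Olig1 to 1.39 for Apod, with a median of 0.64 beside 0.02 over the 15214 genes tested. None of the 33 passed an adjusted p under 0.1 from edgeR's quasi-likelihood test, the test used throughout, and it called 0% of all genes higher. At an unadjusted p under 0.05, 22 of the 33 were higher with ISP and 0 lower, beside 7.87% of all genes higher. DESeq2 called 4 of the 33 higher (Padi2, St18, Il33 and Cryab), beside 1.26% of all genes, and limma-voom called 0 of the 33 and 0% of all genes. The values of the ISP and Veh libraries did not overlap for 1 gene, Olig2, beside 2.74% of all genes. Without ISP 18 the median of the 33 was 0.36, without Veh 6 it was 0.95, and without both it was 0.67. The edgeR test called Ermn, Tspan2 and Myrf without Veh 6, beside 30 of 15367 genes (0.195%) called higher, and Ermn and Myrf without both libraries, beside 13 of 15122 genes (0.0860%). DESeq2 called Il33 alone of the 33 without ISP 18, beside 52 genes in all called higher, and 0 of the 33 with ISP 14 and ISP 18 both left out, beside 5.

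Veh set against control gave a median log2 fold change of 0.12 for the 33 genes, beside 0.02 over 15126 genes, and 25 of the 33 were above 0. One gene, Apod, was higher in Veh (edgeR adjusted p = 0.0963), beside 1.03% of all genes called higher, and 0 of the 33 were lower, beside 1.20% of all genes called lower. At an unadjusted p under 0.05, 2 of the 33 were higher, beside 8.10% of all genes. DESeq2 called Apod and Padi2 higher, beside 3.31% of all genes, limma-voom called 0 of the 33, beside 0.926% of all genes, and the groups did not overlap for Padi2 alone, beside 4.11% of all genes. The direction of most genes rested on Veh 6: without it the median was -0.17 and 8 of the 33 were above 0.

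ISP set against control gave 23 of the 33 genes higher and 0 lower at an edgeR adjusted p under 0.1, beside 6.74% of all 15232 genes called higher and 3.42% called lower. The median log2 fold change was 0.76 over the 33 and -0.01 over all genes. DESeq2 called 27 of the 33 higher, beside 9% of all genes, and limma-voom called 24, beside 6.47%. At an unadjusted p under 0.05, 31 of the 33 were higher, beside 12.3% of all genes, and the libraries of the groups did not overlap for 12 of the 33, beside 7%. By role, the test called 10 of the 12 sheath proteins, 6 of the 7 enzymes, 3 of the 6 transcription factors, 4 of the 5 secreted, stress and transport proteins, and none of the 3 signalling and cytoskeleton proteins, of which DESeq2 called 1, Gpr37. This comparison and that of ISP with Veh share the 4 ISP libraries, and it shares the control libraries with that of Veh with control, so their values are given side by side and not as separate support.

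The number called for ISP with control moved with single libraries, and so did the number over all genes. It was 8 of 33 without control 38, beside 2.18% of all genes called higher, and 10 without control 19, beside 3.26%. Without ISP 18 it was 11, beside 2.40%, and without ISP 14 it was 14, beside 1.94%. Without ISP 16 it rose to 32, beside 9.47%. With ISP 14 and ISP 18 both left out it was 3 (Hapln2, Padi2 and Apod), beside 0.458%. The median without ISP 18 was 0.49 and without both it was 0.43, and all 33 genes stayed above 0 in each of these fits. Whichever single library was left out, 8 genes were called: Cldn11, Ermn, Hapln2, Car2, Qdpr, Padi2, Apod and Il33.

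**Figure D1:**
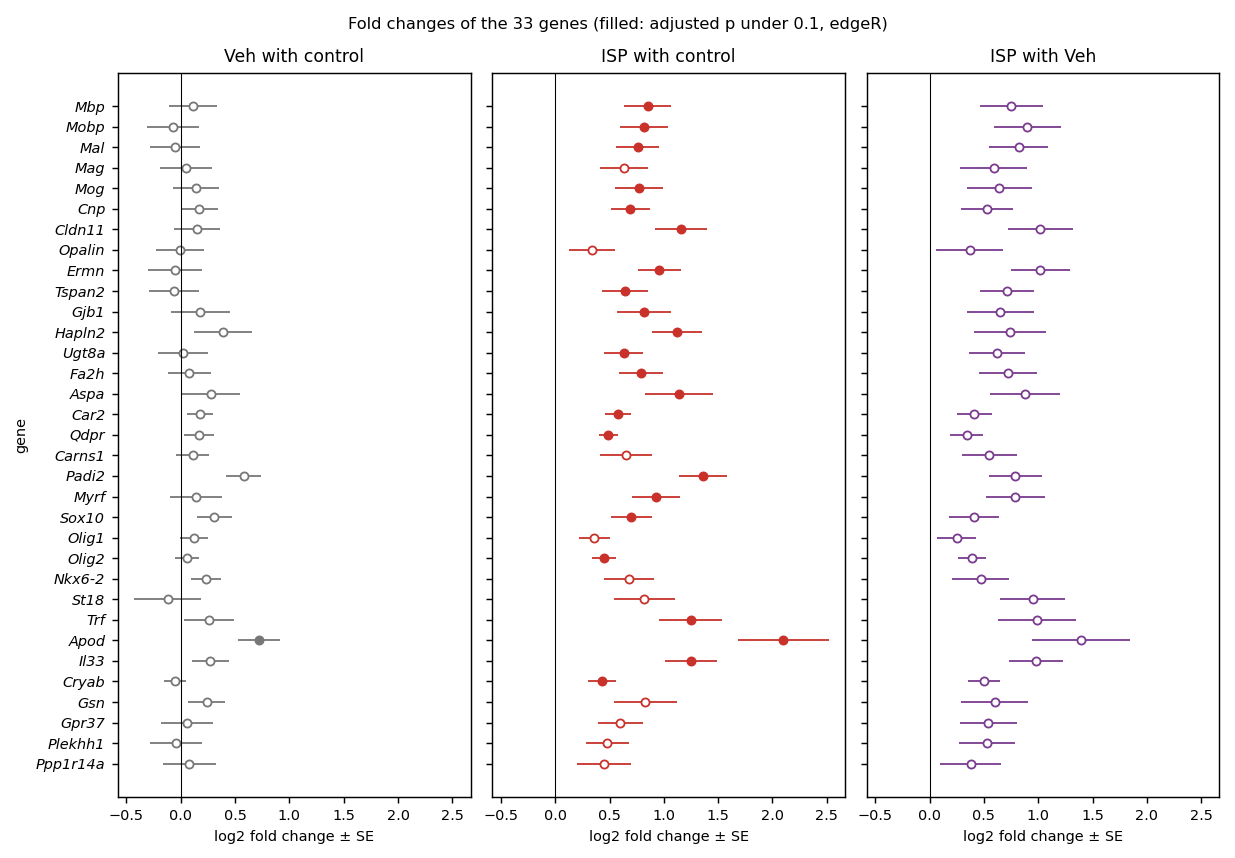
Log2 fold change of each of the 33 genes with its standard error (horizontal axis), in 3 panels for Veh with control, ISP with control and ISP with Veh, with filled points for an edgeR adjusted p under 0.1. Points lie around 0 in the first panel, where Apod alone is filled, and above 0 for all 33 genes in the other panels, with 23 filled for ISP with control and none for ISP with Veh.

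The sheath proteins carried most of the counts. Mbp, the basic protein that compacts the inner faces of the myelin membrane, had the highest mean level per length of the 33, at 529 CPM per kilobase of its longest transcript, followed by Mobp at 236, and St18 had the lowest, at 0.696. In the order of libraries given above, Mbp was at 1782, 2118, 2381 and 1602 CPM in control, at 1815, 3399, 1879 and 1343 in Veh and at 3426, 3087, 2251 and 5366 in ISP. ISP 18 was highest and Veh 10 lowest, and the groups overlapped, since Veh 6 lay above ISP 14 and ISP 16, and ISP 16 lay under control 36. Group means were 1971 ± 347 CPM in control, 2109 ± 893 in Veh and 3533 ± 1318 in ISP (SD, n = 4 in each). Mbp had a log2 fold change of 0.85 for ISP with control (standard error 0.22, edgeR adjusted p = 0.0490), 0.75 for ISP with Veh (standard error 0.29, edgeR adjusted p = 0.286) and 0.11 for Veh with control (edgeR adjusted p = 0.857). Without ISP 18 the first was 0.57 and the second 0.47.

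Mobp, on chromosome 9 from 120149707 to 120181484, is a second basic protein of compact myelin, and part of its exons is shared with Gm38642 on the same strand. It was at 552, 701, 758 and 501 CPM in control, at 464, 984, 571 and 356 in Veh and at 1060, 947, 724 and 1705 in ISP. ISP 16 lay under Veh 6 and control 36, so the groups overlapped, and the spread among Veh libraries ran from 356 to 984. Mobp had a log2 fold change of 0.82 for ISP with control (edgeR adjusted p = 0.0552), 0.90 for ISP with Veh and -0.07 for Veh with control. Without Veh 6, the value for Veh with control was -0.43.

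Mag, on chromosome 7 from 30899176 to 30914873, is the adhesion protein of the membrane next to the axon and also an inhibitor of axon growth. Its levels were 130, 161, 181 and 119 CPM in control, 118, 250, 145 and 92.4 in Veh and 218, 203, 141 and 348 in ISP. ISP 16 lay among the control libraries and under Veh 6, and Mag was not called by edgeR, DESeq2 or limma-voom in any comparison, with a log2 fold change of 0.63 for ISP with control (standard error 0.22, edgeR adjusted p = 0.126). Mog, on chromosome 17 from 37010743 to 37023398, an immunoglobulin-like protein of the outer surface of the sheath, was at 43.1, 55.6, 53.2 and 47.0 CPM in control, at 41.0, 85.5, 54.1 and 36.1 in Veh and at 77.8, 73.0, 52.6 and 133 in ISP. ISP 16 again lay within the control range, and the log2 fold change for ISP with control was 0.77 (edgeR adjusted p = 0.0704) and 0.45 without ISP 18, where the call was lost.

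Cnp, on chromosome 11 from 100574904 to 100591729, is a phosphodiesterase that keeps channels of cytoplasm open in myelin, and its exons overlap those of Dnajc7 on the other strand. It was at 284, 285, 322 and 236 CPM in control, at 285, 446, 314 and 213 in Veh and at 445, 415, 309 and 651 in ISP. Of the ISP libraries only ISP 16 lay within the control range, and Veh 6 lay above 3 of the 4 ISP libraries. The log2 fold change was 0.69 for ISP with control (edgeR adjusted p = 0.0521), 0.53 for ISP with Veh and 0.17 for Veh with control.

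Cldn11, on chromosome 3 from 31149920 to 31164324, the claudin of the tight junctions between myelin layers, was at 79.5, 100, 113 and 76.5 CPM in control, at 85.3, 160, 91.2 and 69.7 in Veh and at 199, 193, 115 and 315 in ISP. Every ISP library lay above every control library, by little for ISP 16, while ISP 16 lay under Veh 6. Its means were 92.2 ± 17.3 CPM in control, 101 ± 39.9 in Veh and 206 ± 82.4 in ISP (SD, n = 4 in each). The log2 fold change was 1.16 for ISP with control (standard error 0.24, edgeR adjusted p = 0.0275) and 1.02 for ISP with Veh (standard error 0.30, edgeR adjusted p = 0.261), the value for Veh with control being 0.15.

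Ermn, on chromosome 2 from 58045113 to 58052864, is an actin-linked protein of late oligodendrocytes whose exons overlap those of Galnt5 on the other strand. Its values were 30.1, 46.9, 45.6 and 28.3 CPM in control, 26.2, 60.2, 31.4 and 26.3 in Veh and 73.7, 63.0, 55.4 and 100 in ISP. All ISP libraries lay above all control libraries, and only Veh 6 reached the ISP range. Ermn had a log2 fold change of 0.96 for ISP with control (edgeR adjusted p = 0.0289) and 1.02 for ISP with Veh (standard error 0.27, edgeR adjusted p = 0.261), and the latter was 0.83 without ISP 18 and 1.38 without Veh 6.

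The other 5 sheath genes ranked the libraries in much the same way. Hapln2, a link protein of the nodes of Ranvier, was higher in ISP than in control by 1.12 on the log2 scale (edgeR adjusted p = 0.0277), with no overlap between these groups, at 14.3 to 21.5 CPM in control and 27.7 to 63.9 CPM in ISP. Gjb1, a connexin of oligodendrocyte gap junctions, had 0.82, Mal, a proteolipid of membrane rafts, 0.76, and Tspan2, a tetraspanin, 0.64, each called for ISP with control. Opalin, a sialylated membrane protein of oligodendrocytes, had the smallest log2 fold change of the 33, 0.34 for ISP with control (edgeR adjusted p = 0.373), with control libraries at 22.6 to 24.9 CPM and ISP libraries at 16.4 to 40.1 CPM. For Tspan2, exons overlap those of Tspan2os on the other strand.

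**Figure D2:**
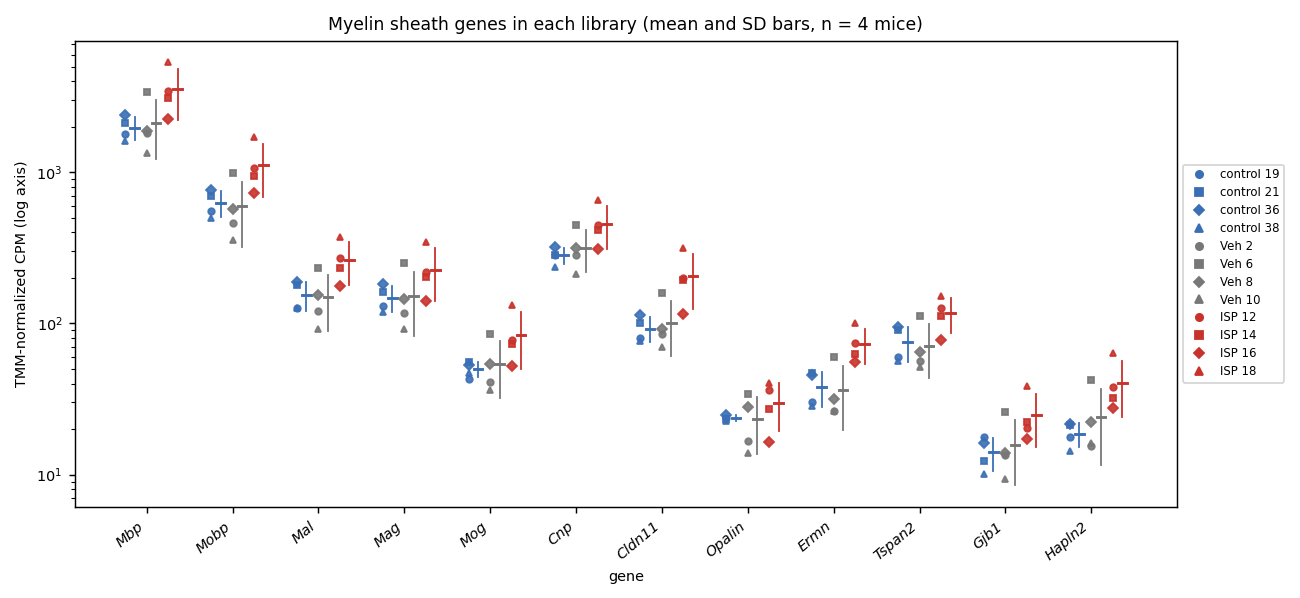
TMM-normalized CPM of the 12 sheath genes in each library (vertical log axis), with 1 point per mouse, marker shapes for the mouse and bars for the mean and SD of 4 mice. ISP 18 is the top point of every gene, Veh 6 is the top grey point, and ISP 16 is the lowest red point.

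Of the 33 genes, 23 had promoter sequences in the RefSeq set for GRCm38.p6, in windows of 250 bases before to 50 bases after a start site, 32 windows in all. They were searched on both strands for ACAAAG, a core of SOX sites, for CTGGCAC, a core of MYRF sites, and for CAGCTG, an E-box of the kind that OLIG factors bind, and none of these letter strings holds another. The SOX letters were found in 7 of the 23 genes (30.4%, beside 21% of all 27025 genes with a window), the MYRF letters in 4 (17.4%, beside 5.73%) and the E-box in 6 (26.1%, beside 18.3%). The genes with SOX and MYRF letters in the same window were Opalin, Mag and Cnp, all sheath genes, and these windows are printed here. For ISP with control edgeR called Cnp and not Mag or Opalin. Their log2 fold changes were 0.69 for Cnp (standard error 0.18), 0.63 for Mag (standard error 0.22) and 0.34 for Opalin (standard error 0.21). The genes were not tested against each other. The fourth gene with MYRF letters was Hapln2. Matched letters are in capitals, in the direction of the gene, and a match on the other strand shows as its reverse complement. The windows are chr19:41077064-41077363 on the minus strand for Opalin, chr7:30914814-30915113 on the minus strand for Mag and chr11:100574689-100574988 on the plus strand for Cnp.
Opalin: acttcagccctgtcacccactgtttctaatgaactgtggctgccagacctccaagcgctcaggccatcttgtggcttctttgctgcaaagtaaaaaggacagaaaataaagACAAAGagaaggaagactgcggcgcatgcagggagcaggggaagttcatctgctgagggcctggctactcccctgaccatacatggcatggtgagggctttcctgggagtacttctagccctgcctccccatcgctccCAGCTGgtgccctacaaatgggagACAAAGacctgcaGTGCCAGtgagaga
Mag: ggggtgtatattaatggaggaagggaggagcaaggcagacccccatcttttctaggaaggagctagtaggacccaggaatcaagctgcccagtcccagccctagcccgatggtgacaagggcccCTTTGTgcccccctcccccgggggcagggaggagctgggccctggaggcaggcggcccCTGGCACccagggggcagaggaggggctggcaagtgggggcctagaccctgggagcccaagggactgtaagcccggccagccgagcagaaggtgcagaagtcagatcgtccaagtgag
Cnp: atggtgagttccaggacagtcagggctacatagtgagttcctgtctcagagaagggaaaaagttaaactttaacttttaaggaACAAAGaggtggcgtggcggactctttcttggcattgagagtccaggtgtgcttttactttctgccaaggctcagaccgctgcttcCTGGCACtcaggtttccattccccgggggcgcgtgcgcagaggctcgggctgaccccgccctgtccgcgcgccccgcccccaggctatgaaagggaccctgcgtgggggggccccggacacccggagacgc
Opalin holds SOX letters at 2 places, the E-box and, at its end, the MYRF letters of the other strand, and Mag holds SOX letters of the other strand. A match is a description of the letters and not of a bound site.

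Among the enzymes, those of the myelin galactolipids were measured first. Ugt8a, on chromosome 3 from 125865271 to 125938619, makes galactosylceramide, and it was at 33.1, 42.0, 40.5 and 27.6 CPM in control, at 23.2, 58.4, 32.5 and 29.2 in Veh and at 57.4, 52.1, 38.5 and 72.5 in ISP. ISP 16 lay within the control range and under Veh 6. Fa2h, on chromosome 8 from 111345135 to 111393824, adds a hydroxyl group to the fatty acids of these lipids, and it was at 28.4, 32.3, 34.5 and 24.8 CPM in control, at 29.3, 47.3, 28.8 and 20.2 in Veh and at 55.5, 42.4, 34.4 and 73.8 in ISP. ISP 16 and control 36 were next to each other, the other ISP libraries being higher than any control library. Both were called for ISP with control, with log2 fold changes of 0.63 for Ugt8a (edgeR adjusted p = 0.0676) and 0.79 for Fa2h (edgeR adjusted p = 0.0486), and their values for Veh with control were 0.02 and 0.08.

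Aspa, on chromosome 11 from 73304992 to 73329596, splits N-acetylaspartate into aspartate and acetate. It was at 7.20, 12.8, 12.8 and 6.45 CPM in control, at 10.7, 18.1, 10.2 and 7.93 in Veh and at 23.6, 17.3, 11.5 and 33.7 in ISP. ISP 16 lay under 2 control libraries, and Veh 6 lay above ISP 14 and ISP 16. The log2 fold change was 1.14 for ISP with control (standard error 0.31, edgeR adjusted p = 0.0590) and 0.88 for ISP with Veh, falling to 0.83 and 0.57 without ISP 18.

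Padi2, on chromosome 4 from 140906344 to 140952586, turns arginines of proteins such as myelin basic protein into citrulline, and its exons overlap those of Gm13031 on the other strand. Its values were 16.8, 23.4, 21.9 and 18.9 CPM in control, 24.4, 39.4, 24.6 and 31.2 in Veh and 44.5, 49.2, 34.2 and 79.0 in ISP. Control libraries were lowest, with no overlap with Veh or ISP, and only Veh 6 reached the ISP range. Means were 20.2 ± 2.96 CPM in control, 29.9 ± 7.06 in Veh and 51.7 ± 19.2 in ISP (SD, n = 4 in each). Padi2 had the smallest p of the 33 for ISP with control, with a log2 fold change of 1.36 (standard error 0.22, edgeR adjusted p = 0.0186), and it stayed called with ISP 14 and ISP 18 both left out, at 0.97. For Veh with control it had 0.58 (standard error 0.16, edgeR adjusted p = 0.110, DESeq2 adjusted p = 0.0270), and for ISP with Veh 0.79 (edgeR adjusted p = 0.263, DESeq2 adjusted p = 0.0449).

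Qdpr, on chromosome 5 from 45434021 to 45450236, regenerates tetrahydrobiopterin, and part of its exons overlaps Gm42413 on the other strand. It was at 189, 176, 200 and 160 CPM in control, at 192, 271, 191 and 153 in Veh and at 254, 257, 222 and 287 in ISP. All ISP libraries lay above all control libraries, with Veh 6 inside the ISP range, and the spread was narrow, the highest of the 12 libraries being 1.88 times the lowest. Its log2 fold change was 0.49 for ISP with control (standard error 0.09, edgeR adjusted p = 0.0246), 0.43 without ISP 18, and 0.34 for ISP with Veh. Car2, the carbonic anhydrase of oligodendrocyte cytoplasm, was also higher in ISP than in control without overlap, by 0.58 on the log2 scale (edgeR adjusted p = 0.0275), at 122 to 144 CPM in control and 159 to 248 CPM in ISP. Carns1, the carnosine synthase, had 0.65 and was called by DESeq2 (adjusted p = 0.0705) and not by edgeR (adjusted p = 0.139), and its exons overlap those of AC109138.8 and Gm17552.

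Of the transcription factors, Myrf, on chromosome 19 from 10208272 to 10240748, the membrane-bound factor that starts and maintains myelin gene expression, was at 35.1, 48.2, 49.3 and 29.1 CPM in control, at 31.9, 72.2, 37.4 and 35.2 in Veh and at 70.6, 74.8, 50.9 and 110 in ISP. ISP lay above control throughout, with ISP 16 only just above control 36, and Veh 6 lay among the ISP libraries. Myrf had a log2 fold change of 0.93 for ISP with control (standard error 0.22, edgeR adjusted p = 0.0386) and 0.79 for ISP with Veh (standard error 0.27, edgeR adjusted p = 0.271), and the latter was 1.14 without Veh 6, where it was called.

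Sox10, on chromosome 15 from 79154908 to 79165240, acts through the whole oligodendrocyte lineage, precursors included. It was at 33.5, 44.9, 38.6 and 37.1 CPM in control, at 43.5, 65.8, 44.7 and 34.8 in Veh and at 67.1, 55.8, 40.2 and 86.8 in ISP. ISP 16 lay within the control range, and Veh 6 lay above ISP 14 and ISP 16. Sox10 was called for ISP with control, at 0.70 (standard error 0.19, edgeR adjusted p = 0.0565), and had 0.31 for Veh with control (edgeR adjusted p = 0.378) and 0.41 for ISP with Veh.

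Olig2, on chromosome 16 from 91225457 to 91228677, likewise spans the lineage and is also made by some astrocytes after injury. Its values were 29.8, 26.3, 27.7 and 26.1 CPM in control, 30.2, 32.2, 29.4 and 22.1 in Veh and 39.5, 33.7, 33 and 43.2 in ISP. All ISP libraries lay above all control and all Veh libraries, which held for no other of the 33 genes. For ISP with Veh alone, 2.74% of all genes tested were higher without overlap. Means were 27.5 ± 1.69 CPM in control, 28.4 ± 4.41 in Veh and 37.3 ± 4.86 in ISP (SD, n = 4 in each), with a log2 fold change of 0.45 for ISP with control (standard error 0.11, edgeR adjusted p = 0.0387) and 0.39 for ISP with Veh (standard error 0.13, edgeR adjusted p = 0.266). The neighbouring Olig1, whose exons overlap those of Gm15966 on the other strand, had 0.36 and 0.25 in the same order, and was called for ISP with control by DESeq2 (adjusted p = 0.0790) and not by edgeR (adjusted p = 0.150).

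St18, a zinc finger factor on chromosome 1 from 6487231 to 6860940, had the lowest counts of the 33, 32 to 222 per library. It was at 2.77, 4.47, 3.95 and 2.23 CPM in control, at 1.89, 4.33, 3.47 and 2.49 in Veh and at 6.78, 5.47, 3.90 and 7.50 in ISP. ISP 16 lay within the control and Veh ranges and the other ISP libraries above them. Its log2 fold change was 0.82 for ISP with control (edgeR adjusted p = 0.109, DESeq2 adjusted p = 0.0482) and 0.95 for ISP with Veh (edgeR adjusted p = 0.266, DESeq2 adjusted p = 0.0968). Nkx6-2, a homeobox factor of myelinating cells whose exons overlap those of Inpp5a on the other strand, had 0.68 and 0.47 in the same order, with edgeR adjusted p = 0.111 and 0.404, and DESeq2 called the first (adjusted p = 0.0351).

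In the group of secreted, stress and transport proteins, Apod, on chromosome 16 from 31296192 to 31314808, encodes a lipocalin that binds lipids and that fibroblasts and cells of vessel walls make as well as oligodendrocytes. It was at 85.8, 79.9, 82.3 and 67.8 CPM in control, at 113, 142, 81.2 and 179 in Veh and at 159, 489, 119 and 579 in ISP. The control libraries were close together, ISP 14 and ISP 18 were far above all others, and Veh 10 was the highest Veh library, above ISP 12 and ISP 16. The log2 fold change was 2.10 for ISP with control (standard error 0.42, edgeR adjusted p = 0.0271) and 1.39 for ISP with Veh (standard error 0.45, edgeR adjusted p = 0.266), and with ISP 14 and ISP 18 both left out these were 0.82 and 0.11. For Veh with control it was 0.72 (standard error 0.19, edgeR adjusted p = 0.0963), a call that was kept without Veh 8 and lost with any other single library left out. Among the Veh libraries Apod had the order of the list of fibroblasts, pericytes and meninges, which stood at 1.90 in Veh 10, 0.18 in Veh 6, -0.06 in Veh 2 and -0.33 in Veh 8 in mean log2 CPM relative to the 12 libraries. In ISP the libraries highest for Apod were also those highest for activated microglia and macrophages, ISP 14 and ISP 18, at 2.61 and 2.51 on that scale. The part of these cells in the Apod values was not tested.

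Il33, on chromosome 19 from 29925114 to 29960718, a nuclear cytokine that oligodendrocytes and astrocytes store and release on damage, was at 25.7, 41.4, 35.1 and 28.0 CPM in control, at 33.4, 53.0, 35.8 and 33.7 in Veh and at 65.4, 88.8, 43.2 and 110 in ISP. All ISP libraries were above all control libraries, ISP 16 being under Veh 6. Il33 had the smallest p of the 33 for ISP with Veh, where its means were 76.8 ± 28.9 CPM and 39.0 ± 9.42 CPM (SD, n = 4 in each) and its log2 fold change 0.98 (standard error 0.25, unadjusted p = 0.0024, edgeR adjusted p = 0.261, DESeq2 adjusted p = 0.0922). It was 0.76 without ISP 18 and 0.48 with ISP 14 also left out. For ISP with control the log2 fold change was 1.25 (edgeR adjusted p = 0.0269), and for Veh with control 0.27.

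Cryab, on chromosome 9 from 50751325 to 50756636, a small heat shock protein shared by oligodendrocytes and astrocytes, was at 123, 108, 116 and 107 CPM in control, at 109, 133, 101 and 91.8 in Veh and at 135, 129, 144 and 203 in ISP. Its exons overlap those of Hspb2 on the other strand. ISP lay above control in every library and was overlapped by Veh 6, and here ISP 14, not ISP 16, was the lowest ISP library, the only such gene of the 33. The log2 fold change was 0.43 for ISP with control (edgeR adjusted p = 0.0782), 0.50 for ISP with Veh (edgeR adjusted p = 0.263, DESeq2 adjusted p = 0.0657) and -0.05 for Veh with control.

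Gsn, on chromosome 2 from 35256380 to 35307892, encodes gelsolin, which cuts actin filaments and is made by oligodendrocytes and by cells of the meninges. It was at 41.9, 47.2, 58.5 and 39.0 CPM in control, at 46.7, 74.3, 43.0 and 54.3 in Veh and at 65.2, 72.6, 45.8 and 147 in ISP. ISP 18 stood far above every other library, and ISP 16 lay within the control range. Gsn was not called by edgeR, DESeq2 or limma-voom in any comparison, with log2 fold changes of 0.83 for ISP with control (edgeR adjusted p = 0.112) and 0.60 for ISP with Veh, the latter 0.16 without ISP 18. Trf, the iron carrier transferrin, whose exons overlap those of Gm20425 on the same strand, was higher in ISP than in control without overlap, at 172 to 256 CPM in control and 267 to 898 CPM in ISP, a log2 fold change of 1.25 (edgeR adjusted p = 0.0377). It was highest in ISP 18, at 898 CPM, and among Veh libraries in Veh 6, at 425 CPM, the libraries with choroid plexus transcripts. Without ISP 18 the log2 fold change was 0.81 for ISP with control, and for ISP with Veh it went from 0.99 to 0.56. The part of choroid plexus in the Trf values was not tested.

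The 3 signalling and cytoskeleton genes were above 0 for ISP with control and for ISP with Veh, and edgeR called none of them in any comparison. For ISP with control, Gpr37, a receptor of the G protein-coupled family, had a log2 fold change of 0.60 (edgeR adjusted p = 0.124) and was called by DESeq2 (adjusted p = 0.0377), Plekhh1, whose exons overlap those of Pigh on the other strand, 0.48 (edgeR adjusted p = 0.188) and Ppp1r14a, an inhibitor of myosin phosphatase, 0.45 (edgeR adjusted p = 0.316). Ppp1r14a was the gene whose ISP with Veh value turned below 0 with ISP 14 and ISP 18 both left out, from 0.38 to -0.06.

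**Figure D3:**
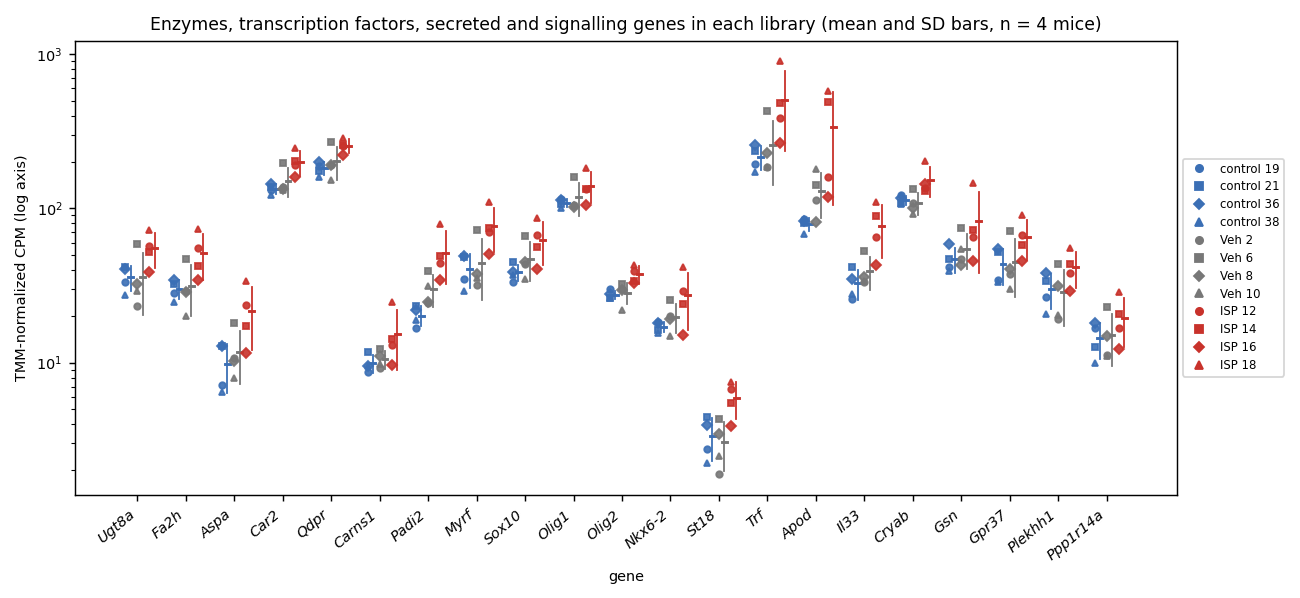
TMM-normalized CPM of the 21 other genes, which are the enzymes, transcription factors, secreted, stress and transport proteins, and signalling and cytoskeleton proteins, in each library (vertical log axis), with 1 point per mouse and bars for the mean and SD of 4 mice. Apod shows ISP 14 and ISP 18 far above the rest at 489 and 579 CPM, and Olig2 shows all ISP points above all others.

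The libraries ranked alike from gene to gene. ISP 18 was the highest of all 12 libraries for 33 of the 33 genes, Veh 6 was the highest Veh library for 32, with Apod the exception, and ISP 16 was the lowest ISP library for 32. Control 38 was the lowest control library for 28 and Veh 10 the lowest Veh library for 20. As a mean of log2 CPM relative to the 12 libraries, the 33 genes stood at 1.07 in ISP 18, followed by ISP 12 with 0.46, ISP 14 with 0.44 and Veh 6 with 0.42, while the other 8 libraries lay between -0.54 and -0.07, ISP 16 among them at -0.08. The genes come from the same punches, so they are not independent replicates of this order.

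Other gene lists moved with some of these libraries. The 11 listed genes of layer 6, layer 6b and claustrum neurons in the table, such as Cplx3 and Hs3st4, reached 0.88 in ISP 18, with ISP 12 at 0.71, Veh 6 at 0.61 and ISP 14 at 0.03, and stood at -0.79, -0.58, -0.56 and -0.80 in control 19, control 38, Veh 2 and Veh 10, the 4 libraries that were also lowest for the 33 genes. Their summed level ran from 217 to 375 CPM in control, 174 to 410 CPM in Veh and 287 to 465 CPM in ISP. Not all of the 11 followed the mean: Crym had its lowest value of the 12 libraries in ISP 18, at 28.3 CPM. With the mean of that list as a covariate in a fit of all 12 libraries, 9 of the 33 genes were called for ISP with control, beside 5.25% of all genes called higher, with a median of 0.36, and 0 for ISP with Veh, with a median of 0.28. The 20 genes of activated microglia and macrophages summed to 2117 to 2997 CPM in control, 2901 to 4372 CPM in Veh and 3001 to 9064 CPM in ISP, led by ISP 14 and ISP 18. With their mean as a covariate, 0 of the 33 genes were called in any of the 3 comparisons, and few genes were called at all, 6 of 15232 higher and 0 lower for ISP with control (0.0394%), while the median of the 33 was 0.48 for ISP with control and 0.43 for ISP with Veh. The 14 genes of reactive astrocytes summed to 120 to 135 CPM in control, 237 to 834 CPM in Veh and 424 to 3034 CPM in ISP, again led by ISP 18 and ISP 14. All 14 were above 0 for ISP with Veh, with a median log2 fold change of 1.65. Of these edgeR called 0 and DESeq2 2, beside 1.26% of all genes. In the same comparison all 20 microglia genes were above 0, with a median of 1.30. The layer 6 list had 9 of 11 above 0, with a median of 0.77. In each of these 2 lists edgeR called 0 and DESeq2 1. The 9 genes of upper-layer neurons were at -0.38, -0.46 and -0.39 in ISP 18, ISP 12 and Veh 6, 3 of the 4 libraries highest for the 33 genes, and at -0.29 in ISP 14, but also at -0.48 in control 36. Their summed level was 466 to 972 CPM in control, 500 to 984 CPM in Veh and 462 to 699 CPM in ISP, and their median log2 fold change for ISP with Veh was -0.59, with 0 called by edgeR, 5 of 9 lower at an unadjusted p under 0.05 beside 7.47% of all genes, and 3 called lower by DESeq2 beside 1.51%. The list means used as covariates differ between the groups themselves, so such fits remove group differences as well, and what part cortical depth, microglia or astrocytes had in the myelin values was not tested further.

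**Figure D4:**
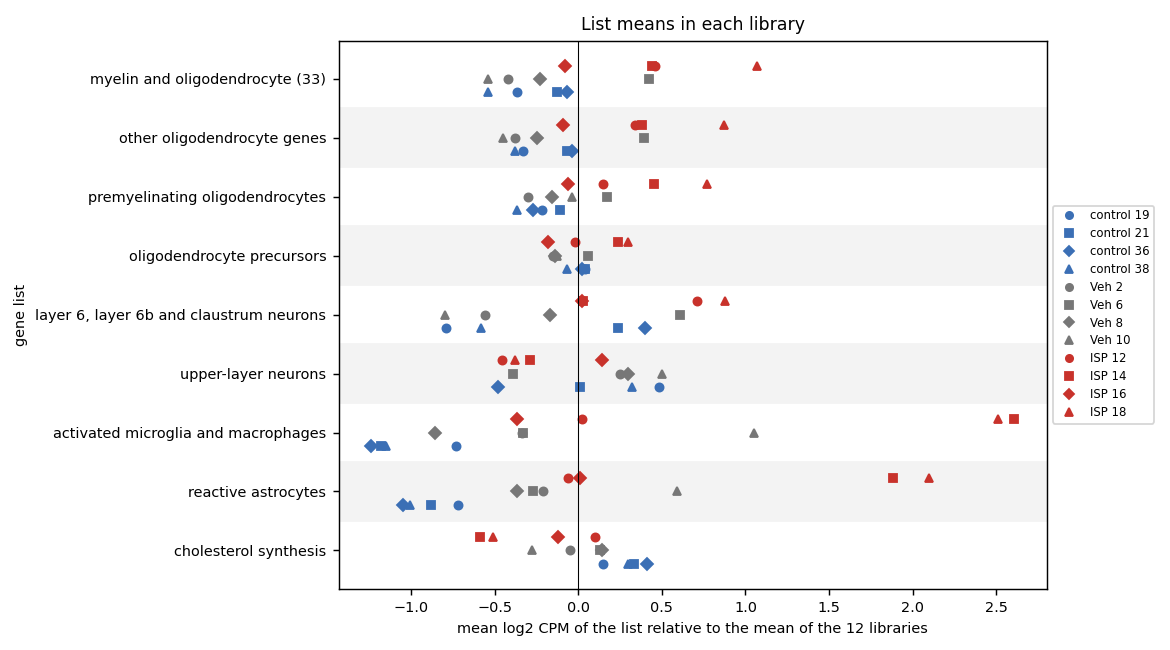
Mean log2 CPM of each gene list in each library, relative to the mean of the 12 libraries (horizontal axis), with 1 row per list, 1 point per mouse and colours for the groups. The rows of the 33 genes, of other oligodendrocyte genes and of layer 6 neurons have ISP 18, ISP 12 and Veh 6 to the right, with ISP 14 beside them in the first and second of these rows (0.44 and 0.38) and near 0 in the layer 6 row (0.03), and the rows of activated microglia and reactive astrocytes have ISP 14 and ISP 18 to the right.

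Among 45 further genes of oligodendrocytes, 23 were called higher and 0 lower for ISP with control, beside 6.74% and 3.42% of all genes, with a median log2 fold change of 0.63. For ISP with Veh edgeR called 0 of the 45, DESeq2 called 5, beside 1.26% of all genes, and limma-voom 0, 26 were higher at an unadjusted p under 0.05, beside 7.87%, and the median was 0.48. Tmcc3 had 1.02 for ISP with control (edgeR adjusted p = 0.0220) and 0.82 for ISP with Veh, Evi2a had 1.22 and 0.89, and Pls1, a plastin, had 0.68 and 0.70. Klk6, a secreted protease, had 2.95 for ISP with control (standard error 0.72, edgeR adjusted p = 0.0420), from 21.7 CPM in ISP 14 and 42.0 CPM in ISP 18, with ISP 12 and ISP 16 at 4.32 and 2.45 CPM. Enpp2, also among the 45, was at 885 CPM in Veh 6 and 667 CPM in ISP 18, the libraries with choroid plexus transcripts. It was at 166 to 209 CPM in every other library. What part choroid plexus had in this list was not tested.

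The 18 genes of oligodendrocyte precursors had medians nearer to 0. Their median log2 fold change was 0.12 for ISP with control, 0.19 for ISP with Veh and -0.06 for Veh with control. For ISP with Veh, 15 of the 18 were above 0, and edgeR called 0. For ISP with control, 14 of the 18 were above 0. There edgeR called 1 of the 18 lower, beside 3.42% of all genes, and 0 higher. The gene was Gria3, a glutamate receptor subunit that neurons also make in quantity, at -0.32 (edgeR adjusted p = 0.0820). Xylt1, Pcdh15 and Epn2 were not called by edgeR, at -0.41, -0.46 and 0.08. In the same comparison DESeq2 called 2 of the 18 lower and 1 higher, beside 5.73% and 9% of all genes. By limma-voom 0 were lower and 1 higher, beside 4.10% and 6.47%. For Veh with control edgeR and limma-voom called 0 of the 18. At an unadjusted p under 0.05 each gave 3 lower, beside 8.24% of all genes by edgeR and 8.53% by limma-voom. DESeq2 called 3 lower, beside 4.34% of all genes. Of 12 genes of premyelinating oligodendrocytes, edgeR called 5 higher in ISP than in control, beside 6.74% of all genes. All 12 were above 0, with a median of 0.56. Among the 5 were Gpr17, a receptor of cells about to myelinate, at 0.51 (edgeR adjusted p = 0.0762), and Tns3 at 0.66 (edgeR adjusted p = 0.0275). Arpc1b, an actin regulator also made by microglia, was called too, at 1.42 (edgeR adjusted p = 0.0342). Bmp4 was at 0.83 (edgeR adjusted p = 0.226). For ISP with Veh the median of the 12 was 0.40, and 9 were above 0. There edgeR and limma-voom called 0 of them and DESeq2 1, beside 1.26% of all genes for DESeq2. At an unadjusted p under 0.05 in edgeR, 5 were higher, beside 7.87%. The list of peripheral myelin had 5 of 7 genes tested for ISP with control. Of these 1 was called higher, Pmp22, at 1.00 (edgeR adjusted p = 0.0440), beside 6.74% of all genes. Prx, Gldn and Drp2 were not called by edgeR, at -0.41, 1.35 and -0.15.

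Genes of cholesterol synthesis, the lipid that myelin growth requires in quantity, differed in direction from the 33 genes for ISP with control. Of the 18 listed, 0 were above 0 in any of the 3 comparisons. Their median was -0.26 for Veh with control and -0.24 for ISP with Veh. By edgeR, 11 of the 18 were lower in ISP than in control and 0 higher, beside 3.42% of all genes called lower, with a median of -0.56. For Veh with control edgeR called 2 lower, beside 1.20%, among them Idi1 at -0.56 (edgeR adjusted p = 0.0963). There DESeq2 called 7 lower, beside 4.34%, and limma-voom 3, beside 1.34%. At an unadjusted p under 0.05 in edgeR, 8 were lower in Veh than in control, beside 8.24%. Mvd had -0.80 for ISP with control (edgeR adjusted p = 0.0186) and -0.58 for ISP with Veh (edgeR adjusted p = 0.261), and Hmgcs1 -0.67 and -0.23. For ISP with Veh edgeR called 0 of the 18, with 4 lower at an unadjusted p under 0.05, beside 7.47% of all genes, DESeq2 called 1 lower, beside 1.51%, and limma-voom 0. Neurons and astrocytes make cholesterol too, and the list stood lowest in ISP 14 and ISP 18, at -0.59 and -0.51.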

How the data were processed

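RNA-seq libraries from 12 mice, 4 per group, were used, 1 library per mouse. RNA was isolated by the authors, and a sequencing company made the libraries from poly(A) RNA. Reads were placed on mm10 by HISAT2 and assigned to genes by HTSeq with its default options, and DESeq2 was the authors' test. No version of these tools is given in the sources used here. As deposited, the table gives raw whole-number counts for 25238 genes. The kit's marking of strand is not stated, so reads of exons shared with a gene on the other strand cannot be told apart.

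Each comparison was fitted on its own 8 libraries over all genes in R 4.3.3 with edgeR 4.0.16: filterByExpr by group, TMM factors, glmQLFit and glmQLFTest, two-sided, with p-values adjusted after Benjamini and Hochberg and a call at an adjusted p under 0.1. All 33 genes passed the filter in each comparison, which kept 15214 genes for ISP with Veh, 15126 for Veh with control and 15232 for ISP with control. Alternatives were DESeq2 1.42.0, limma 3.58.1 (voom with quality weights), DESeq2 size factors, no filter, at least 10 counts in every library, all 12 libraries in 1 fit, GC content and length offsets (known for 98.1% to 98.2% of tested genes, loess span 0.3), a threshold of 0.05 and omission of each library in turn. Leaving out ISP 18 and Veh 6, or DESeq2 without ISP 18, or without ISP 14 and ISP 18, and list means as covariates were added after the values were seen. The scripts were tested on simulated counts with 200 changed genes.

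The 33 genes, the other lists and the tests were chosen with earlier results of these data known. All 33 are named. Values in every library are given for 16 preset genes and for the 3 with the smallest p in each direction of each comparison, and up to 4 genes are named from each of 5 related lists, some of whose genes are not reported here. Trf, Car2 and other genes are given by range or fold change. Library values and lists are on TMM-normalized CPM from all 12 libraries. Gene positions are those of GENCODE M21 on GRCm38 (mm10), and promoters those of RefSeq. Within groups, 18 pairs of libraries had a chi-square per degree of freedom of 11.1 to 50.9, so none was a repeat of another. The labels do not say whether mice were processed together, and p-values measure the spread between these 12 libraries.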

Additional observations from a re-analysis of the deposited data

Results flagged for a closer look

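In groups of 4 libraries, a value was marked where its gap to the nearest library was large against the range of the group (Dixon's criterion). This held for 5 of the 99 groups checked, and chance alone marks about 1 in 20 groups. All 5 lay in Veh 6, the library with choroid plexus transcripts: Ermn at 60.2 CPM with the next Veh library at 31.4, Car2 at 197 with the next at 138, Myrf at 72.2 with the next at 37.4, Olig1 at 161 with the next at 105, and Il33 at 53.0 with the next at 35.8.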

How the results depend on the processing

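No paired analysis was possible because the groups share no replicate numbers. Depth limited little here, since each of the 33 genes had at least 32 counts in every library, and the spread between mice set the precision. For ISP with Veh, the direction of all 33 genes held under every alternative run except for Ppp1r14a, which was at -0.06 with ISP 14 and ISP 18 both left out, by edgeR and by DESeq2. For ISP with control it held except for Opalin with the layer 6 covariate (-0.09) and Ppp1r14a with the microglia covariate (-0.02). The cause was not tested for any of these changes.

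Counts of calls moved as follows. For ISP with Veh, DESeq2 called 184 genes higher and 221 lower, with 4 of the 33 and 5 of the 45 other oligodendrocyte genes. With 1 library left out the calls were 0 to 30 higher and 0 to 42 lower, 0 to 3 of the 33 and 0 to 6 of the 45, the highest values being those without Veh 6. With ISP 18 and Veh 6 left out they were 13 and 18, 2 and 5. DESeq2 without ISP 18 gave 52 and 98, 1 and 1, and without ISP 14 and ISP 18 it gave 5 and 12. For Veh with control, DESeq2 gave 490 and 643, with 2 of the 33 higher and 1 of the 45 lower, no filter 283 lower and 2 of the 33, the fit of 12 libraries 11 and 33, the offsets 97 lower, the layer 6 covariate 45 higher, the microglia covariate 7 and 0, and a threshold of 0.05 12 and 6. In the edgeR test as reported Apod was the only gene of the 33 called, DESeq2 and no filter adding Padi2, and the number was 0 with limma-voom, the fit of 12 libraries, the offsets, both covariates and the threshold of 0.05, and 0 to 1 with 1 library left out, where all genes gave 0 to 188 higher and 0 to 294 lower, a move of over 1.5 times for each library but Veh 6, and the call of Apod was kept without Veh 8 alone. For ISP with control, DESeq2 called 873 lower. With 1 library left out the calls were 299 to 1465 higher and 121 to 818 lower, 8 to 32 of the 33 and 4 to 29 of the 45, with moves of over 1.5 times without control 19, 36 or 38 and without ISP 14, 16 or 18. With ISP 14 and ISP 18 left out they were 71 and 19, 3 and 1, by DESeq2 179 and 113, 11 and 4. The layer 6 covariate gave 9 of the 33 and 9 of the 45, the microglia covariate 6 and 0, 0 and 0, and the threshold of 0.05 517 and 174, 13 and 12.

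Of 561 log2 fold changes of the 33 genes under the alternatives for Veh with control, 68 changed sign, and 17 of these did so without Veh 6. With 1 library left out, 25 genes changed sign under at least 1 omission, over these whole ranges: Mag (-0.31 to 0.22), Ugt8a (-0.33 to 0.17), Gpr37 (-0.26 to 0.21), Mal (-0.35 to 0.12), Ermn (-0.42 to 0.07), Tspan2 (-0.38 to 0.07), St18 (-0.34 to 0.05), Plekhh1 (-0.32 to 0.10), Mobp (-0.43 to 0.11), Opalin (-0.26 to 0.17), Fa2h (-0.19 to 0.24), Ppp1r14a (-0.20 to 0.22), Mbp (-0.22 to 0.27), Mog (-0.17 to 0.29), Cnp (-0.05 to 0.31), Cldn11 (-0.16 to 0.29), Gjb1 (-0.19 to 0.36), Hapln2 (-0.03 to 0.54), Aspa (-0.02 to 0.43), Qdpr (-0.01 to 0.27), Myrf (-0.20 to 0.26), Olig1 (-0.08 to 0.18), Olig2 (-0.01 to 0.16), Trf (-0.10 to 0.39) and Cryab (-0.17 to 0.02). With limma-voom, Opalin was at 0.01, St18 at 0.02 and Plekhh1 at 0.03. With the offsets, Mag was at -0.07, Ermn at 0.06, Tspan2 at 0.03, Fa2h at -0.03, Olig2 at -0.05, St18 at 0.04 and Plekhh1 at 0.00. The layer 6 covariate put Mag at -0.01 and Ugt8a at -0.02, and the microglia covariate put Mag at -0.05, Ugt8a at -0.07, Carns1 at -0.09, Gsn at -0.06 and Ppp1r14a at -0.09.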
